A study of Homo sapiens with 12 samples.

Results

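N-glycosylation attaches a branched sugar chain to asparagine residues of proteins that enter the endoplasmic reticulum (ER). The chain is first built on dolichol phosphate, a long polyprenyl lipid in the ER membrane, starting on the cytosolic face and ending in the lumen. The oligosaccharyltransferase then moves the whole chain to the protein, the spent dolichol pyrophosphate is recycled, and glucosidases, mannosidases and N-acetylglucosaminyltransferases trim and rebuild the chain in the ER and Golgi. The genes for these steps were examined here in cells with reduced PPIL3, a nuclear cyclophilin of the spliceosome. The set held 40 genes, chosen by symbol from a list of pathway members, and 39 of them had a named transcript cluster, the gene-level unit of the array. These made up 39 of 67528 clusters in the table and 39 of the 22516 named clusters with enough signal to test. SRD5A3 had no cluster named here and was read from its probe sets only.

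Both groups were HEK293T cells, an established line from human embryonic kidney that expresses SV40 large T antigen, with a lentiviral short hairpin RNA stably integrated under puromycin selection. One group of 3 arrays carried a scrambled hairpin (SCR) and the other group of 3 arrays carried a MISSION library hairpin against PPIL3 (knockdown). Total RNA was hybridized to the Affymetrix Human Transcriptome Array 2.0, and the deposited values are log2 signals, so every difference below is knockdown minus SCR on the log2 scale. Each group was 1 stable line with 1 hairpin as far as the labels say, so effects of the hairpin and of the particular line cannot be told apart. Nothing says that the arrays of a group came from separate cultures, and the p-values reflect only how these arrays scatter, which may be technical. In bulk RNA of this kind, less RNA per cell and fewer cells that hold the RNA cannot be told apart either.

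PPIL3 (TC02002668.hg.1) was the check of the labels. It read 7.75, 7.81 and 7.81 in SCR against 7.30, 7.26 and 7.28 in the knockdown, with no overlap. It fell by 0.51 (SE 0.030), a change of -29.8% (limma adjusted p = 0.0061, and 0.058 with the replicate number as a block). The call was lost without SCR array 2 (adjusted p = 0.065), without SCR array 3 (0.098) and without knockdown array 3 (0.054), at about the same difference. The array medians lay between 6.57 and 6.62, and any pair of arrays correlated at 0.994 or above over clusters. Over all named clusters, limma called 127 of 22516 (0.564%), 99 of them higher (0.44%) and 28 lower (0.124%) after knockdown. With the replicate block 2 clusters were called in all, and leaving out 1 array left between 1 and 20.

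One member was called, and it was lower. DOLPP1 encodes the ER phosphatase that converts dolichol pyrophosphate, released when the sugar chain is transferred, back to dolichol phosphate. None of the other 38 member clusters passed the threshold in either direction (smallest limma adjusted p = 0.085, for TUSC3). The share of members called, 1 of 39, stands beside 0.564% of all named clusters, and no test of the set was made. The set was chosen with earlier results of these data known, so the shares given here cannot serve as a test of the pathway. At an unadjusted p under 0.05, 9 members were higher and 1 lower, 25.6% of the 39, beside 15.3% of all named clusters. The 3 knockdown values lay wholly above or below the 3 SCR values for 13 members (33.3%), 11 above and 2 below, beside 20.4% of all named clusters.

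**Figure D1:**
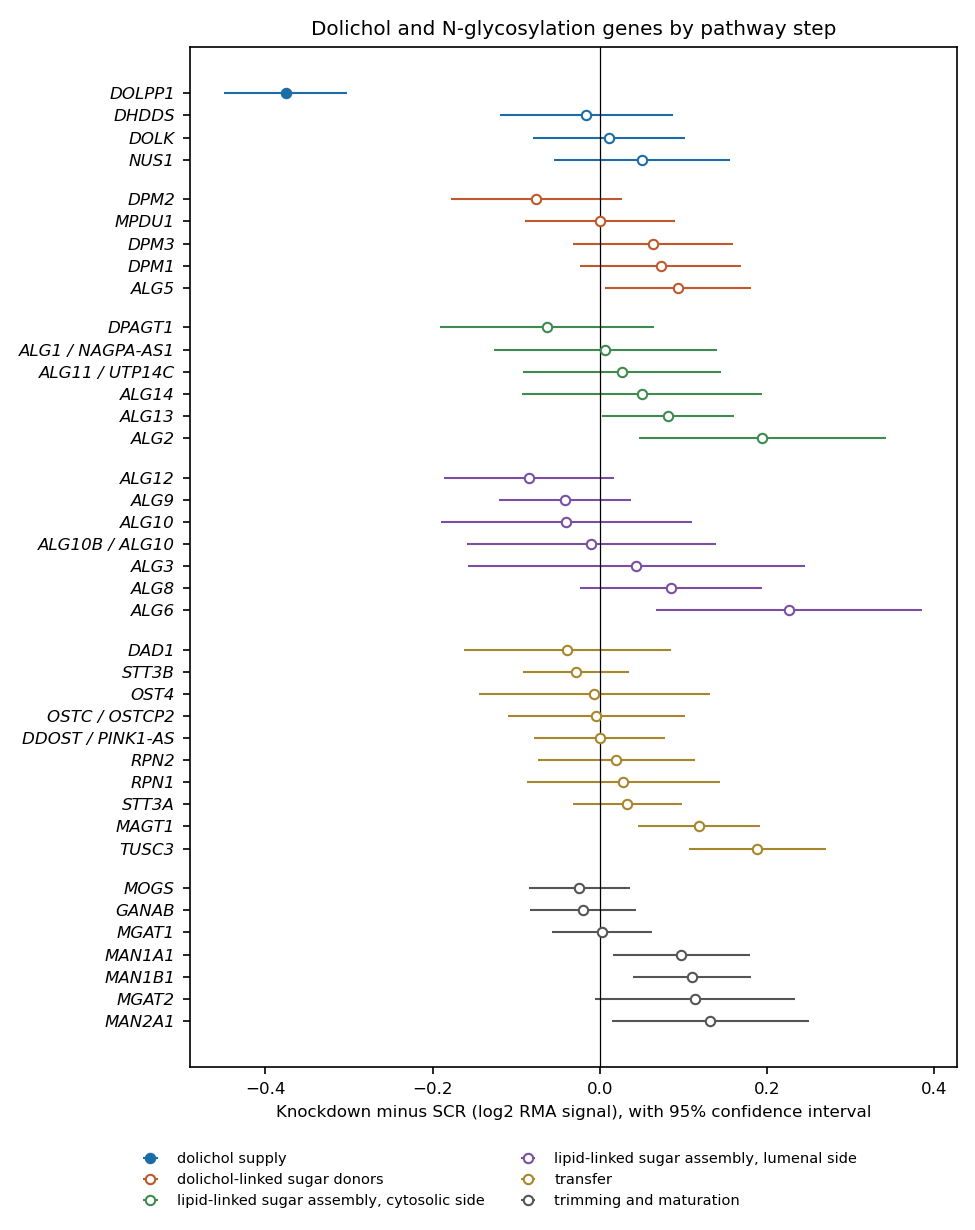
Difference between knockdown and SCR (log2 signal, n = 3 arrays each) for the 39 member clusters, grouped and coloured by pathway step, with 95% confidence intervals from limma. The filled point is the called member, DOLPP1 at -0.38, and the open points, not called, lie between -0.08 and 0.23.

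The stretch before the DOLPP1 start site is shown because DOLPP1 is the only member that was called. It is taken from RefSeq (GRCh38.p14), plus strand, chr9:129080861-129081110, the 250 bases before the annotated start, with CCAAT boxes (CCAAT or, on the other strand, ATTGG) and GC boxes (GGGCGG or CCGCCC) in capitals.
DOLPP1: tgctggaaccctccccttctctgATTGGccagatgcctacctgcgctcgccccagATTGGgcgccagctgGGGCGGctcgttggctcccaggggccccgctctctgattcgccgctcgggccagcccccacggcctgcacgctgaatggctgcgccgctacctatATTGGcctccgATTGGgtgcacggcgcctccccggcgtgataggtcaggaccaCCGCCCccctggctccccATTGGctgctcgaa
All 5 CCAAT boxes read ATTGG on this strand and none overlaps the 2 GC boxes. Extended by 50 bases past the start, the window was 68.7% G or C, beside a median of 58.7% over 35116 promoter windows of that length. A CCAAT box was present in 34.6% of those windows and in those of 20 of the 35 member genes with a promoter given, and a GC box in 45% and in 29 of 35. A member gene counted if any of its windows matched, and some had several (6 for MGAT1). The member counts can therefore run higher than the shares of windows. The ER stress element (ERSE, which contains a CCAAT box) was found in 0.0769% of windows and, among members, in that of ALG12. The unfolded protein response element core (TGACGTGG) was in 0.729% of windows and among members in that of DHDDS. The cAMP response element (TGACGTCA) was in 1.85% and in no member window. The window of DOLPP1 held none of these 3 elements. Both strands were searched, and a match is a run of letters and not a measured binding site.

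The first step supplies dolichol phosphate. DOLPP1 (TC09000707.hg.1) read 9.08, 9.12 and 9.09 in SCR against 8.69, 8.76 and 8.71 in the knockdown. The 3 knockdown values lay below all 3 SCR values, and the gap between the groups was wider than the spread within either. The means were 9.10 ± 0.026 (SD, n = 3) and 8.72 ± 0.032 (SD, n = 3), so DOLPP1 fell by 0.38 (SE 0.031, 95% confidence interval -0.45 to -0.30), a change of -22.9% (limma adjusted p = 0.017). It ranked number 10 of all named clusters by p. With the replicate number as a block, the adjusted p was 0.062. The call also ended when 1 array was left out, with adjusted p = 0.064, 0.16 and 0.13 without SCR array 1, 2 and 3 and 0.052 and 0.11 without knockdown array 1 and 3, and it held without knockdown array 2 (0.042). The difference lay between -0.40 and -0.36 in every one of the alternatives.

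The probe sets of DOLPP1 moved together. Of its 24 probe sets 22 had enough signal, 12 for exons and 10 for exon junctions, and all 22 were lower in the knockdown. The 12 exon probe sets differed by -0.52 to -0.23, with a median of -0.36, and in 11 of them the groups did not overlap. The 10 junction probe sets differed by -0.75 to -0.07, with a median of -0.22, and in 4 of them the groups did not overlap. The mean of the exon probe sets fell by 0.37 (limma adjusted p = 0.0015, adjusted over such means of all genes kept). These probe sets were read on the same arrays as the cluster, so they are not separate evidence. The splicing index, a probe set's signal minus the mean of its gene's exon probe sets on the same array, takes out a change of the whole gene. By the index, junction JUC09004864.hg.1 differed by 0.30 and junction JUC09004867.hg.1 by -0.38 at an unadjusted p under 0.05, and no DOLPP1 probe set passed after adjustment.

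**Figure D2:**
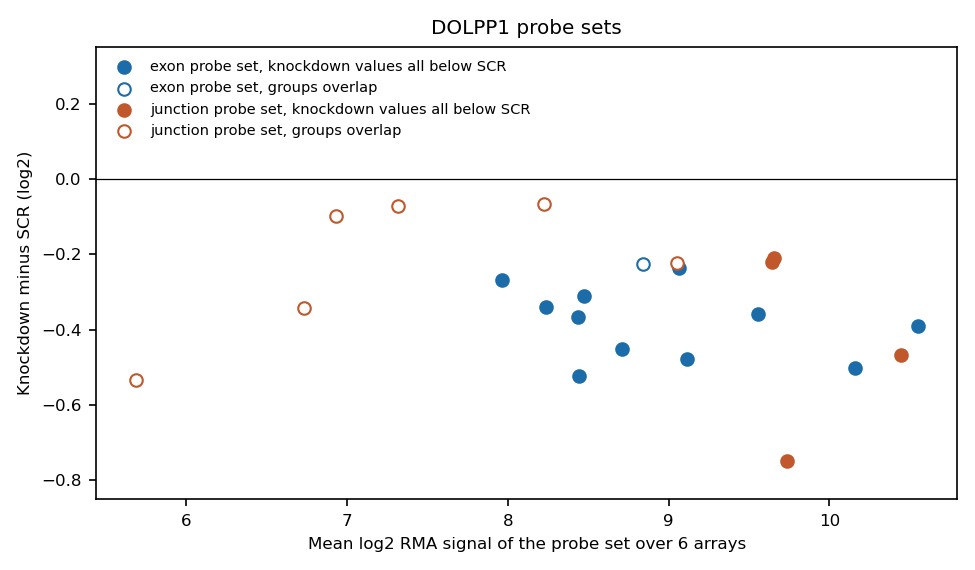
Difference between knockdown and SCR (log2) for the 22 DOLPP1 probe sets against their mean log2 signal over the 6 arrays, exon probe sets in blue and junction probe sets in orange. All 22 points lie below 0, and filled points, 11 exon and 4 junction, are those whose knockdown values all lie below the SCR values.

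The genes on either side of DOLPP1 on chromosome 9 are given as values only. Among the 5 protein-coding genes listed before it and the 5 after it in RefSeq, 9 had a cluster and none was called. Of all named clusters 0.564% were called, 0.124% as lower, so the lack of a call among 9 says little. A shift of the region was not tested. The nearest on each side were MIGA2 (difference -0.07, limma adjusted p = 0.30), whose knockdown values lay below SCR, and CRAT (-0.12, adjusted p = 0.37), whose groups overlapped. SH3GLB2 (-0.06), next to MIGA2, also lay wholly below SCR. PHYHD1 (-0.03), PTPA (-0.04) and IER5L (-0.11) were lower with overlap. NUP188 (0.02), NTMT1 (0.03) and DOLK (0.01) were higher with overlap. DOLK, a member of the pathway, also lies among these neighbours.

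No other gene of dolichol supply was called. DHDDS and NUS1 encode the subunits of the cis-prenyltransferase that builds the polyprenyl chain, and DOLK is the kinase that phosphorylates dolichol. NUS1 had 10.64, 10.62 and 10.62 in SCR against 10.59, 10.74 and 10.70 in the knockdown. These values overlap, and the difference was 0.05 (SE 0.044, limma adjusted p = 0.67). DHDDS differed by -0.02 (95% confidence interval -0.12 to 0.09) and DOLK by 0.01 (-0.08 to 0.10). SRD5A3, the polyprenol reductase, was read from its probe sets. All 15 of its 17 probe sets with enough signal were higher in the knockdown, by 0.02 to 0.46, and its exon mean was 10.38, 10.29 and 10.21 in SCR against 10.46, 10.45 and 10.38 in the knockdown. That exon mean differed by 0.14 (SE 0.055) and did not pass (limma adjusted p = 0.22), with the lowest knockdown array level with the highest SCR array.

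Dolichol-linked sugar donors carry mannose or glucose into the lumen. ALG5 makes dolichol phosphate glucose, DPM1 is the catalytic subunit of dolichol phosphate mannose synthase with DPM2 and DPM3 as its membrane partners, and MPDU1 is needed for the use of both donors. ALG5 had 7.25, 7.28 and 7.33 in SCR against 7.34, 7.43 and 7.36 in the knockdown. The knockdown values lay above SCR by a narrow margin, with a difference of 0.09 (SE 0.036, limma adjusted p = 0.29). DPM2 had 9.48, 9.37 and 9.38 in SCR against 9.37, 9.36 and 9.28 in the knockdown. SCR array 1 stood above the rest, the groups overlapped, and the difference was -0.08 (SE 0.043, adjusted p = 0.46). DPM1 differed by 0.07, DPM3 by 0.06 and MPDU1 by 0.0006, so 4 of the 5 donor genes were higher and none was called.

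Cytosolic assembly of the chain starts with DPAGT1, which adds the first N-acetylglucosamine phosphate, and the ALG13 and ALG14 pair, which adds the second N-acetylglucosamine. ALG1, ALG2 and ALG11 then add mannose. ALG2 had 8.41, 8.51 and 8.48 in SCR against 8.69, 8.76 and 8.54 in the knockdown. The knockdown values were all higher, but knockdown array 3 was close to SCR, and the difference of 0.19 (SE 0.062) did not pass (limma adjusted p = 0.22). ALG13 had 9.05, 9.09 and 9.09 in SCR against 9.14, 9.21 and 9.12 in the knockdown. Its groups did not overlap, and the difference was 0.08 (SE 0.033, adjusted p = 0.31). ALG14 differed by 0.05, DPAGT1 by -0.06, the cluster shared by ALG11 and UTP14C by 0.03 and the cluster shared by ALG1 and NAGPA-AS1 by 0.0068. A signal shared by 2 symbols cannot be split between them.

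On the lumenal side ALG3, ALG9 and ALG12 add mannose from dolichol phosphate mannose, and ALG6, ALG8 and ALG10 or its close copy ALG10B add the 3 glucoses from dolichol phosphate glucose. ALG6 had 7.94, 8.01 and 7.99 in SCR against 8.06, 8.32 and 8.23 in the knockdown. Its difference of 0.23 (SE 0.066) was the largest positive difference among the members, with no overlap but a wide spread in the knockdown, and did not pass (limma adjusted p = 0.19, and 0.051 from the mean of its exon probe sets, which differed by 0.31). ALG8 had 10.65, 10.66 and 10.62 in SCR against 10.69, 10.82 and 10.68 in the knockdown. Knockdown array 2 made most of its difference of 0.08 (SE 0.045, adjusted p = 0.44), and the other knockdown arrays lay just above SCR. ALG10 differed by -0.04 (95% confidence interval -0.19 to 0.11) and the cluster shared by ALG10B and ALG10 by -0.01 (-0.16 to 0.14). The 2 junction probe sets kept for each of these annotations held identical values on every array. The ALG10 reading may therefore not be free of ALG10B. Of the mannosyltransferases, ALG3 differed by 0.04, ALG9 by -0.04 and ALG12 by -0.08, and their groups overlapped.

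The oligosaccharyltransferase moves the finished chain to the protein. Its catalytic subunit is STT3A, which works alongside the translocation channel, or STT3B, whose complexes carry TUSC3 or MAGT1, a pair of related subunits with a thioredoxin fold. TUSC3 had 9.54, 9.48 and 9.44 in SCR against 9.68, 9.69 and 9.66 in the knockdown. All 3 knockdown values lay above SCR, by more than the spread within either group, and the difference was 0.19 (SE 0.034, limma adjusted p = 0.085). MAGT1 had 10.58, 10.65 and 10.60 in SCR against 10.71, 10.73 and 10.75 in the knockdown. It too did not overlap, with a difference of 0.12 (SE 0.030, adjusted p = 0.15). The catalytic subunits differed by 0.03 (STT3A) and -0.03 (STT3B). The other subunits, the structural RPN1 and RPN2, DAD1, OST4, the cluster shared by DDOST and PINK1-AS and the cluster shared by OSTC, a subunit of the STT3A complex, and OSTCP2, differed by 0.03, 0.02, -0.04, -0.0064, -0.0002 and -0.0041. In these 8 clusters the groups overlapped.

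Trimming begins with the glucosidases, MOGS for the outer glucose and GANAB for the inner ones, and goes on with the mannosidases MAN1B1, MAN1A1 and MAN2A1 and the N-acetylglucosaminyltransferases MGAT1 and MGAT2, which start the branches of complex chains. MAN2A1 had 8.43, 8.49 and 8.57 in SCR against 8.57, 8.70 and 8.62 in the knockdown. The highest SCR array reached the lowest knockdown array, and the difference was 0.13 (SE 0.049, limma adjusted p = 0.28). MGAT2 had 8.44, 8.50 and 8.51 in SCR against 8.51, 8.69 and 8.59 in the knockdown. Knockdown array 1 lay just above SCR, and the difference was 0.11 (SE 0.050, adjusted p = 0.35). MAN1B1 differed by 0.11 (SE 0.029, adjusted p = 0.16) and MAN1A1 by 0.10 (SE 0.034, adjusted p = 0.25), both with no overlap. MOGS differed by -0.02, with all knockdown values below SCR, GANAB by -0.02 and MGAT1 by 0.0029.

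**Figure D3:**
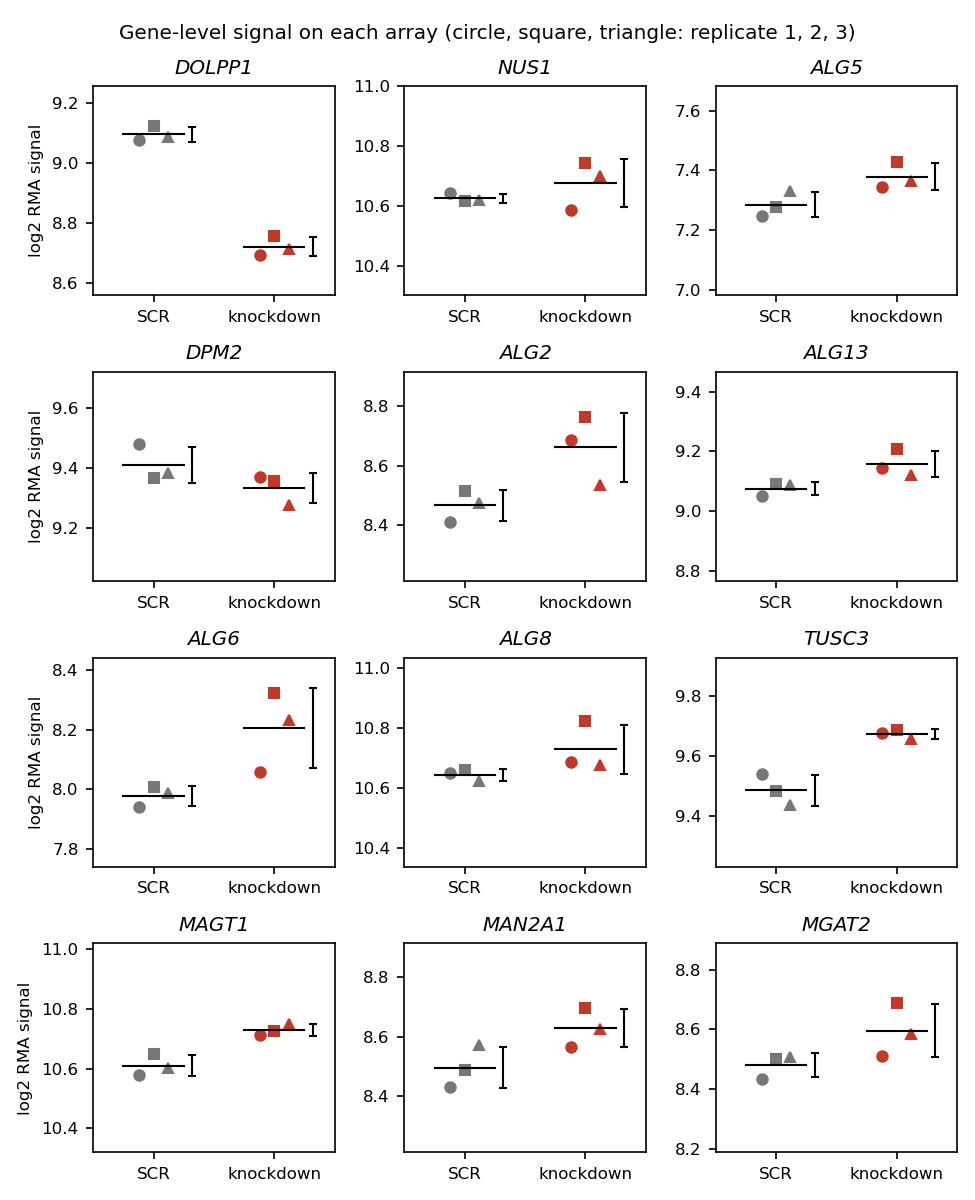
Gene-level log2 signal on each of the 6 arrays for the 2 members of each step with the largest difference in either direction. Every panel spans the same range of log2 signal. Points are arrays, marked by replicate number, the line is the group mean and the bar its SD (n = 3), and in DOLPP1 alone the groups stand apart by over 0.3.

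By step, 2 of 4 clusters were higher in dolichol supply (median difference -0.0022), 4 of 5 among the sugar donors (0.06), 5 of 6 in cytosolic assembly (0.04), 3 of 7 in lumenal assembly (-0.01), 5 of 10 in transfer (0.0098) and 5 of 7 in trimming (0.10). Over the 39 members 24 were higher (61.5%) with a median of 0.02, beside 45.5% and a median of -0.0065 over all named clusters. The median size of the difference was the same at 2 decimals, 0.04, in the members and in all named clusters, and 31 members differed by less than 0.1. The 95% confidence intervals of the 38 members that were not called reached from -0.19 to 0.39 at their extremes.

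The share of higher members rested on 1 array. The mean deviation of the members from the SCR mean was 0.06 on knockdown array 2, against 0.0079 and 0.0087 on knockdown arrays 1 and 3. Without knockdown array 2, 19 of the 39 members were higher (48.7%, median -0.0043), beside 52.4% of all named clusters. Leaving out any other array gave between 56.4% and 66.7% for the members and between 42.9% and 50.6% for all named clusters. The share of members at an unadjusted p under 0.05 was 17.9% without that array, beside 16.2% of all named clusters, and 15.4% without SCR array 1, beside 14.2%. It was 17.9% without SCR array 2 (beside 9.79%), 20.5% without SCR array 3 (beside 10.5%), 28.2% without knockdown array 1 (beside 18.5%) and 17.9% without knockdown array 3 (beside 11.2%).

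**Figure D4:**
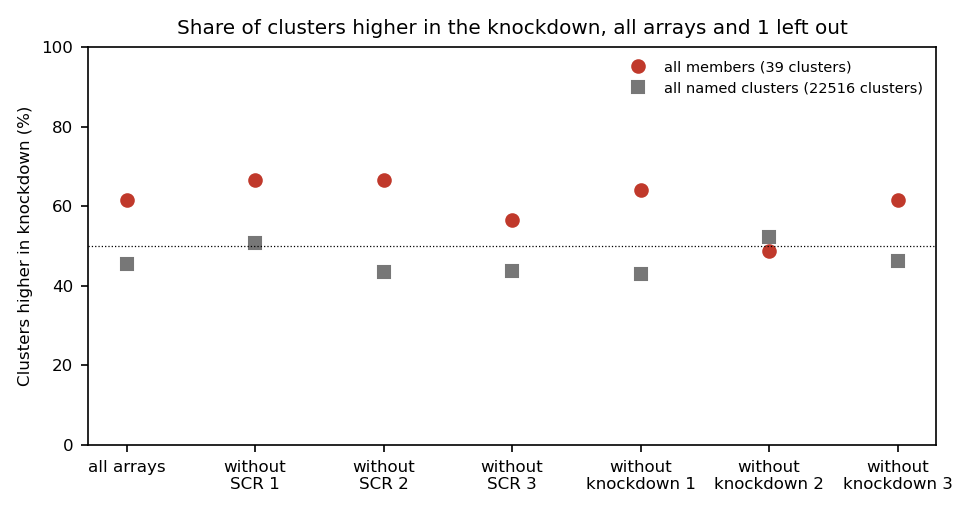
Percent of clusters higher in the knockdown than in SCR, with all 6 arrays and with each array left out in turn, for the 39 members (red circles) and all 22516 named clusters (grey squares). The members lie above all named clusters in every setting but the one without knockdown array 2, where they stand at 48.7% against 52.4%.

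Member levels taken as the mean of the exon probe sets, from the same arrays, had the same direction as the cluster value in 31 of 39. The 8 that differed in sign were at most 0.04 in size in either measure. All 10 members with an unadjusted p under 0.05 kept their direction.

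Splicing of the members was compared by the index over 1107 member probe sets with 1 gene symbol, among 565660 probe sets tested. None passed after adjustment, among the members or in all (0% of 565660, smallest adjusted p = 0.34 over all and 0.51 among the members, limma). At an unadjusted p under 0.05 there were 88 member probe sets (7.95%), beside 7.42% of all. The 6 with the smallest p are given as values only. For DHDDS, exon probe sets PSR01005267.hg.1 and PSR01005250.hg.1 differed in index by -0.56 and 0.59. Their mean signals, 6.05 and 5.74, lay near the minimum of 5, while the DHDDS exon mean was 8.61 in SCR. For MPDU1, junction JUC17000812.hg.1 had an index of 0.82, 0.84 and 0.83 in SCR against 0.48, 0.53 and 0.49 in the knockdown, a difference of -0.33 with no overlap. TUSC3 exon probe set PSR08001049.hg.1 differed by -0.40, MAN1B1 junction JUC09005951.hg.1 by 0.49 and DPAGT1 exon probe set PSR11028450.hg.1 by -0.63.

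MAN1B1, an ER and Golgi mannosidase, and DPAGT1 had 13 of 41 and 10 of 39 tested probe sets at an unadjusted index p under 0.05, and were looked at further after these values were seen. In DPAGT1, 4 of 25 exon probe sets differed in signal by -0.73 to -0.46 and the other 21 by -0.21 to 0.18. Those 4, PSR11028446.hg.1, PSR11028448.hg.1, PSR11028450.hg.1 and PSR11028453.hg.1, alternate by number with probe sets that barely differed, and their place in the transcript was not read here. PSR11028450.hg.1 had 6.64, 6.48 and 6.76 in SCR against 5.99, 6.07 and 5.62 in the knockdown. The knockdown values were all lower, while the whole DPAGT1 cluster differed by -0.06. In MAN1B1, 31 of 41 probe sets were higher in signal, with a median difference of 0.18, and the whole cluster differed by 0.11. By the index, which takes out the change of the whole gene, 8 lay wholly above SCR and 5 wholly below.

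Genes around the pathway were read from lists, and none of those in the 4 lists that follow was called by limma. For the counts of this and the following lists, 45.5% of all named clusters were higher and 15.3% had an unadjusted p under 0.05. The groups did not overlap in 36.7%, 53.3%, 50% and 20% of the 4 lists, in the order given. That share was 33.3% for the members and 20.4% for all named clusters. Among other N-glycosylation genes 10 of 30 were higher (median -0.03, 4 at an unadjusted p under 0.05), with FUT8, the core fucosyltransferase, at 0.15 and EDEM1, which takes part in the disposal of misfolded glycoproteins, at -0.14. Of the genes that supply nucleotide sugars 6 of 15 were higher (median -0.0047, 5 at that p), with SLC35A1, the CMP-sialic acid transporter, at 0.17 and GPI, glucose-6-phosphate isomerase, at -0.15. Genes for other uses of dolichol phosphate mannose, mostly in GPI anchors and O-mannosylation, were higher in 4 of 12 (median -0.04, 4 at that p), with PIGB at 0.19 and POMT2 at -0.18. The list for polyprenyl precursor supply was higher in 6 of 10 (median 0.01, 2 at that p), with PDSS1, a subunit of the enzyme for the ubiquinone side chain, at -0.14. Its largest difference, 0.26, was that of PTGR1, an oxidoreductase of prostaglandins and leukotrienes that does not make these precursors, and the other gene at that p was IDI1, isopentenyl diphosphate isomerase, at 0.13.

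ER chaperones and genes of the XBP1 branch of the unfolded protein response were higher in 9 of 16 clusters (median 0.0099), with none called by limma and 5 at an unadjusted p under 0.05. The 2 largest differences were opposite in sign, HERPUD1 at 0.25 (limma adjusted p = 0.21) and HYOU1 at -0.14 (adjusted p = 0.20). Of 12 genes of the ATF4 amino acid response 1 was higher (median -0.13), none was called and 2 had an unadjusted p under 0.05. SLC7A11, the cystine transporter, had 7.38, 9.40 and 9.48 in SCR against 8.40, 8.12 and 8.21 in the knockdown, and ASNS, asparagine synthetase, differed by -0.35 (limma adjusted p = 0.65). SCR array 1 stood apart from the other SCR arrays over this list, with a mean deviation of -0.30 against 0.15 and 0.16, and the list median was -0.20 without it. Without that array 7 of the 12 were lower at an unadjusted p under 0.05 and 8 did not overlap, against 2 and 1 with all arrays. Over all named clusters, 14.2% had such a p in either direction and 31.7% did not overlap without that array. With all arrays those shares were 15.3% and 20.4%. Without SCR array 1, ASNS differed by -0.72 (limma adjusted p = 0.026) and SLC7A11 by -1.19 (0.064). Without knockdown array 2, 4 of the 12 were higher. The part of this in the member results was not tested.

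Markers of the cell line and of other cell types were read in the same fit. All 7 genes marking the line passed the signal filter, and of these NEFM, a neurofilament protein, was called, with 8.18, 8.12 and 8.13 in SCR against 8.88, 8.78 and 8.87 in the knockdown, a rise of 0.70 (limma adjusted p = 0.0060). The NEFM call was lost without SCR array 2 (0.052), SCR array 3 (0.098) or knockdown array 3 (0.054), and the rise stayed between 0.68 and 0.73. Of the 8 clusters of this list 5 were higher and 3 had an unadjusted p under 0.05, and apart from NEFM these were a KRT8 cluster at 0.30 and VIM at -0.14, neither called. KRT18 differed by -0.07 and PAX2 by -0.03. The fibroblast, immune and endothelial markers that passed the signal filter, 2, 3 and 5 genes of 5 each, held no call by limma, and none had an unadjusted p under 0.05.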

How the data were processed

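RNA from 6 arrays was read, each deposited as 2 samples, once at gene level and once at probe set level. The 2995 rows that both hold were identical in all 6 pairs, against at most 15 values between other samples. The deposited values are log2 signals that the authors made with Affymetrix Expression Console and RMA, which corrects background, equalizes arrays and combines probes by a robust fit. For the versions and the genome build, the sources used here say nothing. Equalized arrays hide a shift common to most transcripts. The labels and the design text disagree on the catalogue number of the PPIL3 hairpin.

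Of 67528 clusters, 23781 had 1 symbol, 1543 several and 42204 none here, and 306 symbols were updated through RefSeq. Clusters with at least 1 symbol and a mean of at least 5 were fitted with limma 3.58.1 (lmFit, eBayes, two-sided, R 4.3.3, the package data.table, 1.17.8) and adjusted by Benjamini-Hochberg at 0.05 over all of them. The splicing index was fitted likewise over probe sets with the same minimum mean, in genes with 3 or more exon probe sets. The scripts were tested on simulated data. Figures used Python and matplotlib. Arrays have no read depth, and their number limits the precision.

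The members and lists were chosen with earlier results of these data known. By rule, every member was named, with array values for called members, for the 2 of each step with the largest difference and for PPIL3. MAN1B1 was added, and DPAGT1 was looked at further, after their values were seen. Both groups carry replicate numbers 1 to 3 in the labels, and the deviations of same-numbered arrays from their group means correlated at 0.35, 0.15 and 0.16 over clusters. As all were above 0.1, a fit with the replicate number as a block was run as an alternative. The main fits held the group only and were not paired. SCR array 3 correlated more with knockdown array 2 (0.21) than with its own number. Alternatives were a replicate block, other filters, normalizations and variance models, array weights (statmod 1.5.0), 1 cluster a gene, exon means and leaving out each array. The replicate block together with 1 cluster a gene, several-symbol annotations in the index, and the settings for NEFM, ASNS and SLC7A11 were added after seeing the data.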

Additional observations from a re-analysis of the deposited data

How the results depend on the processing

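The count of called clusters (127, 99 higher and 28 lower) depended on the variance model. It was 2 with the replicate block, 4 in a linear model without moderation, 6565 with array weights (3366 higher, 3199 lower), 32 with the replicate block and 1 cluster a gene (24 higher, 8 lower), and 1 to 20 when 1 array was left out. Between 97 and 168 clusters were called with other filters, normalizations, trended and robust moderation or 1 cluster a gene. The split was 124 to 44 after a further quantile normalization and 79 to 18 after centring on array medians. With array weights 17 of the 39 members were called (10 higher, 7 lower), beside 6565 of the 22516 named clusters. The count of called members was 0 or 1 when 1 array was left out. It was 0 with the replicate block and in the linear model without moderation. For PPIL3 the difference was -0.51 in both of these settings, with adjusted p = 0.058 and 0.080. It lay between -0.53 and -0.50 when 1 array was left out, with adjusted p up to 0.098. From the mean of its exon probe sets the PPIL3 difference was larger, -0.74 (limma adjusted p = 3.7e-05). The cause was not tested.

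No difference of a member cluster given with values by array changed sign in any alternative (SRD5A3, read from probe sets, was not rerun), and the DOLPP1 call was lost in 7, always with the same direction. Its adjusted p was 0.0496 with the replicate block and 1 cluster a gene, 0.098 without moderation, and between 0.00049 and 0.16 over all alternatives. Besides DOLPP1 the replicate block changed no call of a member. Of the members given with values by array, 8 passed only with array weights, TUSC3 among them. That setting called 6565 of the 22516 named clusters, so a pass there says little about a single member. The count of called probe sets by the splicing index was 0 in every alternative run.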
